A study of Homo sapiens with 4 samples.

Results

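Acetylation of histone H3 at lysine 27 (H3K27ac) was examined at 10 genes of iron uptake, storage and export and of their regulation, TFRC, TFR2, SLC11A2, STEAP3, SLC25A37, FTH1, FTL, SLC40A1, IREB2 and ACO1, among 20037 protein-coding genes. They were taken as a list of named genes, by a rule that uses no measured value, though with earlier results of these data known. Each gene was described in a window that ran from 50 kb below its lower annotated end to 50 kb above its higher end on hg38, and the 10 windows did not overlap. The cells were K562, an erythroleukaemic line from a patient with chronic myeloid leukaemia in blast crisis. 1 H3K27ac library came from cells exposed to daunorubicin (1 uM, 18 h), and 1 from cells that received no drug. Each was made from a bulk culture, so more cells with a mark and more of the mark per cell cannot be told apart. Each condition also had 1 input library. Daunorubicin is an anthracycline that intercalates into DNA and blocks topoisomerase II. With 1 library per condition, no difference given here has a replicate check, and no test between conditions was possible.

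Cells take up iron bound to transferrin through the transferrin receptor, reduce it in the endosome, pass it to the cytosol and send much of it to mitochondria for haem and iron-sulphur clusters. The rest is kept in ferritin shells made of heavy and light chains, or leaves the cell through ferroportin. The iron regulatory proteins IRP1 and IRP2 bind hairpins in the mRNAs of several of these genes, so much of the known control of iron handling acts on RNA. Erythroid cells use iron on a large scale because they make haemoglobin. H3K27ac marks promoters and enhancers that are in use.

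The daunorubicin list held 65118 peaks over 57.0 Mb and the untreated list 38626 peaks over 36.0 Mb, a ratio of 1.69 for peaks and 1.59 for covered length. A longer marking with daunorubicin was therefore the common case: among protein-coding genes with a peak in the window, 87.4% had a longer marked length (base pairs of the window covered by peaks) with daunorubicin. Every count below is to be read against such a share. Of the erythroid marker genes, GATA1, TAL1, KLF1, LMO2, NFE2, EPOR and HBG1 had a peak within 1 kb of an annotated end or start site in both libraries, HBG2 with daunorubicin only, and HBE1 in neither. Of the markers of other cells, EBF1, CD3D, CD3E and EPCAM were marked in both libraries, ALB with daunorubicin only, and MS4A1 and PAX5 in neither. What the peaks at these markers reflect was not tested, nor was their bearing on the results below. No input peak of either condition lay in any of the 10 windows.

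All 10 iron genes had a peak at their own ends in both libraries, as did 60.2% of protein-coding genes. Their windows held 90 daunorubicin peaks and 58 untreated peaks. Marked length was longer with daunorubicin at all 10 genes (87.4% of genes). The median difference of the 10 was 1533.5 bp, and that of all genes with a peak in the window 1312 bp. The ratio of daunorubicin to untreated length lay between 1.08 at TFR2 and 1.80 at SLC40A1, and its median over all genes was 1.34. When both lists were held to equal numbers, the 38626 highest-scoring peaks, 7 of the 10 were longer and 3 shorter, SLC11A2, STEAP3 and FTL. Of all genes, 65.4% were longer. That number is the whole untreated list, so this setting trims only the daunorubicin list and can only shorten its marking.

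**Figure D1:**
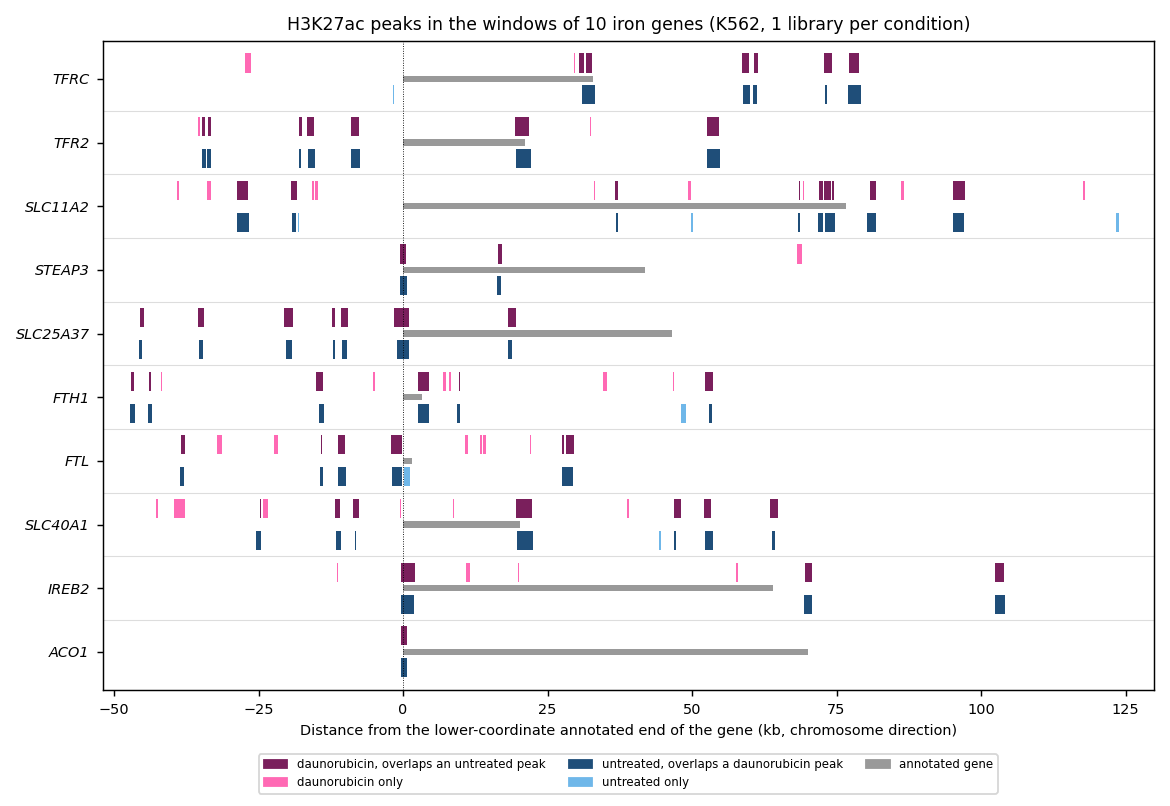
H3K27ac peaks in the windows of the 10 genes, with distance from the lower annotated end in kb on the x axis. For each gene the daunorubicin peaks lie above the grey gene bar and the untreated peaks below it, and pale colours mark peaks with no overlap in the other list. The own gene end was marked in both libraries at all 10 genes, and 1 of the 36 pale daunorubicin peaks lay at an own end.

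The lengthening lay away from the genes' own ends, as it did over all genes. For genes with an end peak in both libraries, the median difference was 39 bp at gene ends and 1442 bp in the rest of the window. For the 10 iron genes these medians were -107 bp and 1910 bp. Over the 10 genes, peaks within 1 kb of the own ends or start sites covered 14691 bp in the daunorubicin list and 16209 bp in the untreated list. FTL alone differed there by -1069 bp. The rest of the windows was covered over 64239 bp with daunorubicin and 44523 bp without it. At the own ends 5 genes were shorter with daunorubicin and 5 longer. Of all genes with an end peak in both libraries, 41.4% were shorter there, or 44.5% when the lists were held to equal numbers. The split of the iron genes was again 5 and 5 in that setting. As it trims only the daunorubicin list, the 5 shorter genes could not turn, so it is no check on them. In the rest of the window 9 of the 10 were longer (86.7% of genes with an end peak in both), and ACO1 had no peak there in either library. With the lists at equal numbers 7 were longer there (64.2% of genes), and SLC11A2 and STEAP3 turned, to differences of -759 bp and -94 bp. The 5 genes with shorter marking at the ends were TFRC, TFR2, SLC11A2 and STEAP3, which are 4 of the 5 uptake genes, and FTL. With 5 of 10, the count lay near the 41.4% of all genes. The look at roles came after seeing the data and was not tested, so no trait of uptake genes is read from it. Those 4 uptake genes were also shorter at their ends at a score of at least 43, the untreated median, and with ends of 2.5 kb. That score is no check on them. At TFRC, TFR2 and STEAP3 all peaks at the ends scored higher, so the differences stayed at -400, -288 and -221 bp. At SLC11A2 it removed only a daunorubicin peak, of score 42, so that gene could not turn. STEAP3 also stayed at -221 bp with ends of 2.5 kb, which took in no further peak. FTL turned at a score of at least 43, and FTH1 with ends of 2.5 kb, to a difference of -15 bp. Shares of all genes in these settings were not computed.

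**Figure D2:**
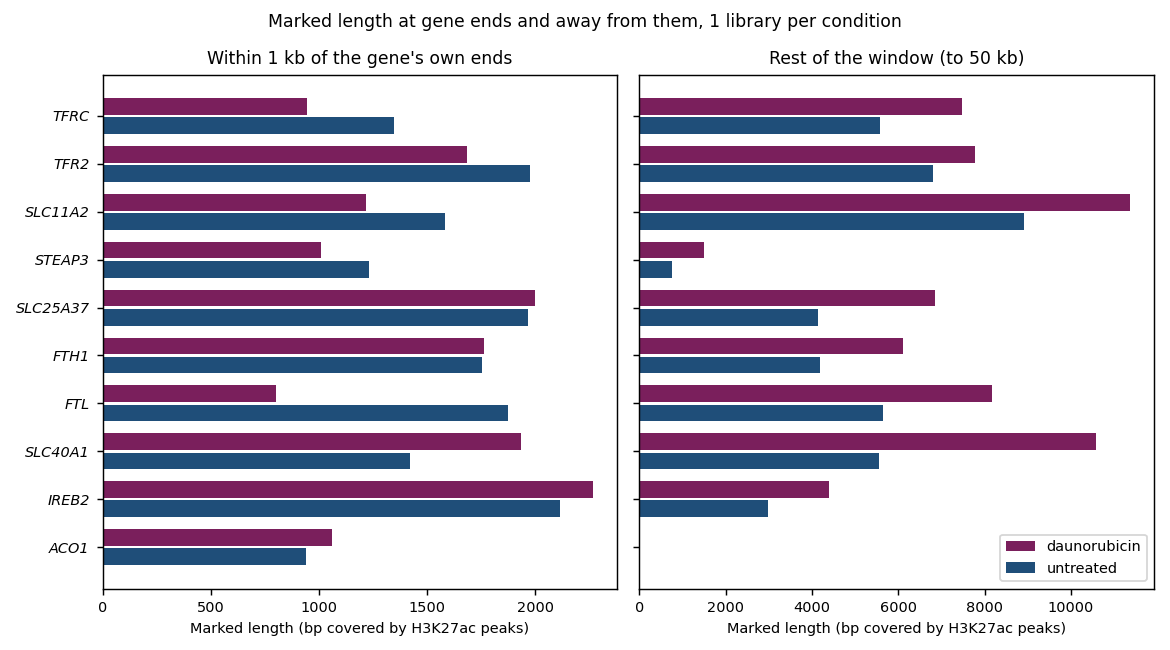
Marked length in bp within 1 kb of the gene's own ends or start sites (left) and in the rest of the window (right), with daunorubicin above untreated for each gene. At the own ends the untreated bar is longer at TFRC, TFR2, SLC11A2, STEAP3 and FTL. In the rest of the window the daunorubicin bar is longer at every gene but ACO1, which has no bar.

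TFRC, on chromosome 3 from 196049284 to 196082090, encodes transferrin receptor 1, the main entry route of transferrin iron in erythroid cells. Its marking was longer in the window and shorter at the start site with daunorubicin. The window was marked over 8423 bp with daunorubicin and 6914 bp without it, and the own ends over 947 bp with daunorubicin and 1347 bp without it. At the start site the daunorubicin list had a peak at 196080883 to 196082036 (1154 bp, score 75), and the untreated list one at 196080189 to 196082436 (2248 bp, score 176). The score is the caller's value per peak, deposited by the authors, and it ranks peaks only within its own list. A further daunorubicin peak inside the gene, at 196079762 to 196080574 (813 bp, score 23), overlapped the same untreated peak, so that 1 untreated peak stood against 2 with daunorubicin. The daunorubicin peak stopped 54 bp short of the start site, whereas the untreated peak ran across it. The 250 bases before the start site (chr3:196082091-196082340, minus strand, RefSeq, GRCh38.p14) are shown because all 250 lay in the untreated peak and none in a daunorubicin peak:
TFRC: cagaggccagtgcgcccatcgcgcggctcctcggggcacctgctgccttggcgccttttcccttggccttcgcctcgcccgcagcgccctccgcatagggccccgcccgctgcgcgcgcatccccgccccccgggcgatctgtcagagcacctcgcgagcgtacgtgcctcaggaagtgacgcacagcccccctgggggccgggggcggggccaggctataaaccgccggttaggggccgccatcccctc
Such a difference was uncommon. Of 10844 RefSeq promoters of that length wholly inside an untreated peak, 2.58% had no base in a daunorubicin peak.

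Above the higher end of TFRC, from 25887 bp away in the daunorubicin list and 25941 bp in the untreated list, lay 4 peaks in each, all overlapping those of the other list. The farthest, 44329 bp above the gene with daunorubicin (196126419 to 196128223, 1805 bp, score 112) and 44203 bp above it without (196126293 to 196128517, 2225 bp, score 68), was the highest-scoring daunorubicin peak of the window. In the untreated list the highest score was that of the start site peak. Called only with daunorubicin were a peak 26272 bp below the lower end (196021915 to 196023012, score 50) and a peak of 230 bp inside the gene (score 45), and called only without it was a peak of 265 bp just below the gene (score 16). The longer marking of the window turned with its size: the daunorubicin minus untreated difference was -316 bp within 10 kb and -730 bp within 100 kb.

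TFR2, on chromosome 7 from 100620420 to 100641552, encodes transferrin receptor 2, an iron sensor of liver and erythroid cells. It had the smallest ratio of the 10. Its marked length was 9469 bp with daunorubicin and 8775 bp in untreated cells. Its own ends were marked over 1687 bp with daunorubicin and 1975 bp in untreated cells. The peak at its higher end, at 100639836 to 100642238 (2403 bp, score 145) with daunorubicin and 100640024 to 100642526 (2503 bp, score 193) without it, was also within 1 kb of an end of ACTL6B, a neuronal chromatin remodelling subunit gene, and cannot be assigned to either gene. Most other peaks of this gene-dense window stood at ends of neighbours such as MOSPD3, GNB2 and PCOLCE. The highest score of the window, 420 with daunorubicin and 570 without it, was that of a peak at ends of LRCH4 and FBXO24. Within 10 kb TFR2 was shorter with daunorubicin, by a difference of -177 bp.

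SLC11A2, on chromosome 12 from 50952263 to 51028886, encodes DMT1, which carries ferrous iron out of the endosome. It had the most peaks of the 10, 18 with daunorubicin and 11 without it. The marked length was 12586 bp with daunorubicin and 10492 bp in untreated cells. RefSeq lists 4 start sites with a promoter sequence, of which only that at 51026384 lay within 1 kb of a peak. There the untreated list had 1 peak (51025258 to 51026967, 1710 bp, score 180) and the daunorubicin list had 2 with the start site in the gap between them (51025174 to 51026308, 1135 bp, score 187, and 51026549 to 51026839, 291 bp, score 42). Of the 250 bases before this start site (chr12:51026385-51026634, minus strand, RefSeq, GRCh38.p14), 86 lay in a daunorubicin peak, shown in capitals, and all 250 in the untreated one. The sequence is given for the place of that gap:
SLC11A2: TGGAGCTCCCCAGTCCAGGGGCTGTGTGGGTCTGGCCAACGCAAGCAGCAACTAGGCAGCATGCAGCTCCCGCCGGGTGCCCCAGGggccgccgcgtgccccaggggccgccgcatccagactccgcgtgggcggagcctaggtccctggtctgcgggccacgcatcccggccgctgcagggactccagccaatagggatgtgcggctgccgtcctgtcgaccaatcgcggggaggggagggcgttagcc
This start site of SLC11A2 was thus inside an untreated peak and outside every daunorubicin peak, the nearest of which lay 76 bp away. The share of all start sites with such a difference was not computed, so it cannot be read as particular to this gene. The share given for TFRC does not apply here, as 86 of the 250 bases lay in a daunorubicin peak.

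SLC11A2 also had 9 of the 36 regions called only with daunorubicin, 3 of them inside the gene, and 3 of the 7 called only without it. Their scores were low, from 14 to 39 with daunorubicin and from 10 to 15 without it. With the lists held to equal numbers of peaks its marked length was 9365 bp with daunorubicin and 10492 bp in the untreated list, so that the direction turned. A peak at LETMD1, a neighbour, had the highest score of the window in both lists, 210 with daunorubicin and 303 without it.

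STEAP3, on chromosome 2 from 119223834 to 119265652, encodes the ferrireductase that turns ferric into ferrous iron in the erythroid endosome. Its window was sparsely marked, with 3 daunorubicin peaks over 2498 bp and 2 untreated peaks over 1995 bp. The start site peak covered 119223368 to 119224379 (1012 bp, score 66) with daunorubicin and 119223280 to 119224512 (1233 bp, score 181) without it. A peak inside the gene covered 119240289 to 119240956 (668 bp, score 82) with daunorubicin and 119240064 to 119240825 (762 bp, score 41) without it. The start site peak had the higher score in the untreated list, and the intragenic peak in the daunorubicin list. The third daunorubicin peak, 26404 bp above the gene (818 bp, score 31), had no untreated counterpart. Within 10 kb, and with the lists held to equal numbers, that peak was left out and the difference was -315 bp.

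SLC25A37, on chromosome 8 from 23528956 to 23575463, encodes mitoferrin 1, the mitochondrial iron importer of developing red cells. Each list had 7 peaks in its window, every one overlapped a peak of the other list, and each was wider with daunorubicin. Marked length came to 8858 bp with daunorubicin and 6097 bp in untreated cells (ratio 1.45). The peak at its lower end was 2620 bp wide (score 110) with daunorubicin and 1997 bp wide (score 158) without it. A peak inside the gene was 1448 bp wide (score 62) with daunorubicin and 657 bp wide (score 42) without it. Of the peaks below the gene, the daunorubicin peak 19015 bp away was 1605 bp (score 77), and its untreated counterpart was 1034 bp (score 36). The daunorubicin peak 11816 bp away was 451 bp (score 53), and its untreated counterpart was 253 bp (score 22). The widening was thus seen at the end, inside the gene and below it. The longer marking held with the lists at equal numbers (8271 bp with daunorubicin and 6097 bp without it) and in the other settings tried, by 1565 to 4507 bp. Of protein-coding genes with a peak in the window, 24.3% had an equal or larger difference, or 13.3% with equal numbers, and 40.6% had an equal or larger ratio.

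FTH1 and FTL encode the heavy and light chains of ferritin, the heavy chain being the one that oxidises iron. Both genes have many processed copies elsewhere in the genome, and the treatment of reads that match several places is not stated in any source at hand. FTH1 lies on chromosome 11 from 61964285 to 61967634. Its marking at the ends hardly differed, 1762 bp with daunorubicin and 1755 bp without it, and the peak at its higher end, also at an end of LOC399900, was 1877 bp (score 165) with daunorubicin and 1892 bp (score 203) without it. The window was marked over 7867 bp with daunorubicin and 5949 bp without it, in 12 peaks with daunorubicin and 7 without it. Of 6 regions called only with daunorubicin, 2 lay just above the gene, 3552 bp (61971186 to 61971727, score 55) and 4664 bp (61972298 to 61972606, score 26) from its higher end. FTH1 was longer with daunorubicin in all settings tried, by 905 to 5398 bp.

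FTL, on chromosome 19 from 48965309 to 48966879, showed the largest difference at gene ends among the 10. Peaks there covered 804 bp with daunorubicin and 1873 bp in untreated cells. Of genes with an end peak in both libraries, 0.149% had a difference at or below its -1069 bp. FTL is 1571 bp long, so its end zones join and take in the whole gene. In longer genes a peak over the body can fall outside the end zones, so that share sets unlike zones side by side. A peak just before the start site was present in both lists, at 48963308 to 48965112 (1805 bp, score 146) with daunorubicin and 48963391 to 48965110 (1720 bp, score 97) without it. A peak over the body of FTL, at 48965464 to 48966534 (1071 bp, score 35), was called only without daunorubicin. Its score stood at percentile 43.0 of the untreated list. The lists at equal numbers are no check on this difference, because the untreated list stays whole in that setting. The body peak decides the difference: where a score of at least 43, the untreated median, was asked for, it was left out, and the ends of FTL were covered over 804 bp with daunorubicin and 802 bp in untreated cells. The start site lay 197 bp from the nearest daunorubicin peak and 155 bp from the nearest untreated one. In the 250 bases before it (chr19:48965059-48965308, plus strand, RefSeq, GRCh38.p14), shown to place the shared peak's edge, capitals mark the 54 bases inside the daunorubicin peak, of which the untreated peak held 52:
FTL: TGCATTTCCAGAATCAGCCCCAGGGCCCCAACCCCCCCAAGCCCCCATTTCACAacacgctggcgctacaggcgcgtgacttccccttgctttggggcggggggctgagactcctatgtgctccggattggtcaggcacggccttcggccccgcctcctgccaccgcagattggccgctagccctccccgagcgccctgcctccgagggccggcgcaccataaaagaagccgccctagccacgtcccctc
The upstream peak thus ended at almost the same base in both lists.

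The window of FTL was marked over 8987 bp with daunorubicin and 7514 bp without it. It had 6 regions called only with daunorubicin, the highest-scoring of them 9139 bp above the gene (48976018 to 48976488, 471 bp, score 72), the highest score of any such region in the 10 windows. In the daunorubicin list the highest score of the window, 148, was that of a peak at an end of BAX, a proapoptotic neighbour, and in the untreated list it was that of a peak at ends of GYS1 and RUVBL2, 119. The difference at FTL was -651 bp within 10 kb and -512 bp with the lists at equal numbers.

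**Figure D3:**
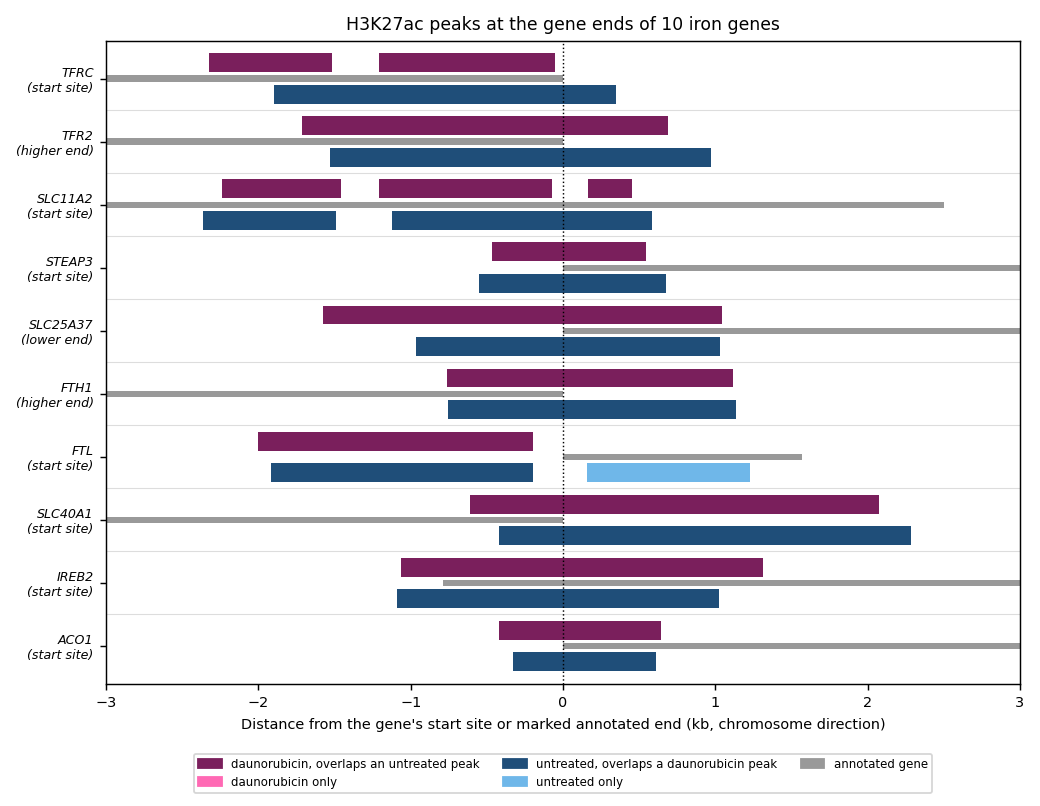
Peaks within 3 kb of the start site of each gene, or of its marked annotated end where no start site was given, with distance in kb in chromosome direction on the x axis. Daunorubicin peaks lie above the grey gene bar and untreated peaks below it. At TFRC and SLC11A2 no daunorubicin peak crosses the dotted line while an untreated peak does, and at FTL the pale untreated peak over the gene has no daunorubicin counterpart. How many of all start sites differ in this way was not computed.

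SLC40A1, on chromosome 2 from 189560590 to 189580786, encodes ferroportin, the cell's iron exporter. It had the largest difference of the 10, its marked length being 12528 bp with daunorubicin and 6963 bp in untreated cells (ratio 1.80). The difference of 5565 bp was reached or passed by 5.86% of protein-coding genes with a peak in the window, and the 4496 bp found when the lists were held to equal numbers by 2.58%. Its ratio was less uncommon and was reached or passed by 21.4% of genes. There were 13 peaks with daunorubicin and 8 without it. The start site peak was much the same in width, at 189580176 to 189582860 (2685 bp, score 93) with daunorubicin and 189580367 to 189583072 (2706 bp, score 145) without it. The rest of the window held 5052 bp of the difference, and the own ends 513 bp.

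Below the gene, regions called only with daunorubicin lay 37770 bp (189521011 to 189522820, 1810 bp, score 49) and 23314 bp (189536333 to 189537276, 944 bp, score 59) from the lower end of SLC40A1. Of its 6 shared peaks away from gene ends, 3 were wider and 3 narrower with daunorubicin. A shared peak 7692 bp below it was 1014 bp (score 64) with daunorubicin, and the untreated peak there was 247 bp (score 15). Those 10989 bp and 24578 bp below it were 735 bp (score 37) and 219 bp (score 17) with daunorubicin, and the untreated peaks they overlapped were 894 bp (score 47) and 796 bp (score 31). Above the gene, shared peaks at 26610 bp and 43354 bp were 1293 bp (score 42) and 1319 bp (score 87) with daunorubicin, and the untreated peaks they overlapped were 254 bp (score 27) and 417 bp (score 25). The highest-scoring daunorubicin peak of the window lay 31899 bp above the gene (189612685 to 189613940, 1256 bp, score 117), where the untreated list had a peak of 1328 bp (score 89). A short peak of 322 bp (score 16) at the lower end was called only with daunorubicin, and a peak of 321 bp (score 17) above the gene only without it. The longer marking held in every setting tried, by 1276 to 7741 bp.

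IREB2, on chromosome 15 from 78437431 to 78501453, encodes IRP2, and ACO1, on chromosome 9 from 32384643 to 32454769, encodes IRP1, which acts as cytosolic aconitase when it holds an iron-sulphur cluster. Their start sites were marked alike in both lists and slightly longer with daunorubicin. At IREB2 the peak spanned 2377 bp (78437155 to 78439531, score 210) with daunorubicin and 2116 bp (78437126 to 78439241, score 284) without it. That of ACO1 measured 1062 bp (32384224 to 32385285, score 131) with daunorubicin and 939 bp (32384313 to 32385251, score 120) without it. That peak was the only one in the window of ACO1 in either list. IREB2 had 4 regions called only with daunorubicin, 3 of them inside the gene, the highest-scoring at 78448310 to 78449033 (724 bp, score 58), and its window was marked over 6652 bp with daunorubicin and 5094 bp without it. Its difference of 1558 bp was 686 bp both with the lists at equal numbers and at a score of at least 43. Its highest-scoring peak stood at the proteasome gene PSMA4 in both lists.

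Regions formed by merging overlapping peaks numbered 51 in both lists, 36 only with daunorubicin and 7 only without it. Over the whole series, the daunorubicin list alone held 44.6% of all regions and the untreated list alone 6.13%. A region called only with daunorubicin was present in the windows of 8 genes (74.0% of protein-coding genes had one), and a region called only without it in those of 5 (30.1%). Of the 36, 29 lay away from all gene ends, 6 at ends of other genes and 1 at an own end, while 86.5% of all regions called only with daunorubicin lay away from gene ends. Of the 7 called only without it, 5 lay away from gene ends, against 85.3% of all such regions. The daunorubicin peaks called alone were narrower and lower in score than the shared ones: their median was 379.5 bp wide and scored 30, and for shared daunorubicin peaks the figures were 1125 bp and 71. Untreated peaks called alone had medians of 346 bp and 16, and the shared ones 886 bp and 52.

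Counts and medians of the widths of shared peaks differed in direction away from gene ends. Of 24 such regions with 1 peak of each list, 11 were wider and 13 narrower with daunorubicin, whereas 71.9% of all 17238 such regions were wider. The median width of the 24 was nevertheless 904 bp with daunorubicin and 689.5 bp in untreated cells. SLC25A37 had 4 of the 11, and all 4 of its own. At gene ends, 12 of 24 regions with 1 peak of each list were wider (4 of 8 at own ends and 8 of 16 at ends of neighbours), against 65.1% of all 13257. Median widths were 2127 bp with daunorubicin and 1944.5 bp in untreated cells at own ends, and 1180 bp with daunorubicin and 992.5 bp in untreated cells at ends of neighbours. As SLC25A37 had no region called in 1 list alone, its whole difference of 2761 bp lay in shared peaks.

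Within each list, scores also ranked the gene ends differently. In the daunorubicin list the own end held the highest-scoring peak of the window at 3 of the 10 genes, SLC25A37, FTH1 and ACO1. In the untreated list it did so at 6, these and TFRC, STEAP3 and SLC40A1. A change of this kind, with the own end highest without daunorubicin and not with it, was seen at 11.3% of all genes with an end peak in both libraries, and the opposite change, which no iron gene showed, at 6.90%. At TFRC the own end scored 75 against 112 for the best other peak with daunorubicin, and 176 against 68 without it. At STEAP3 the own end scored 66 against 82 with daunorubicin, and 181 against 41 without it. At SLC40A1 it scored 93 against 117 with daunorubicin, and 145 against 89 without it.

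**Figure D4:**
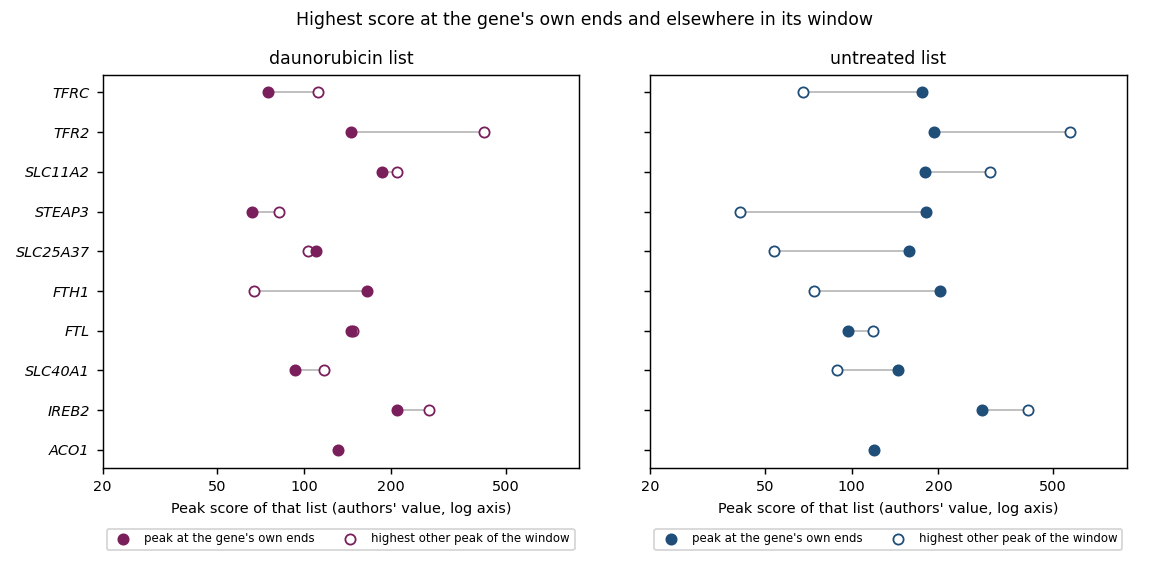
Highest peak score at the gene's own ends (filled) and elsewhere in its window (open), in the daunorubicin list (left) and the untreated list (right), on a log axis. Scores are to be compared only within a panel. At TFRC, STEAP3 and SLC40A1 the filled point lies left of the open one in the daunorubicin list and right of it in the untreated list.

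**Figure D5:**
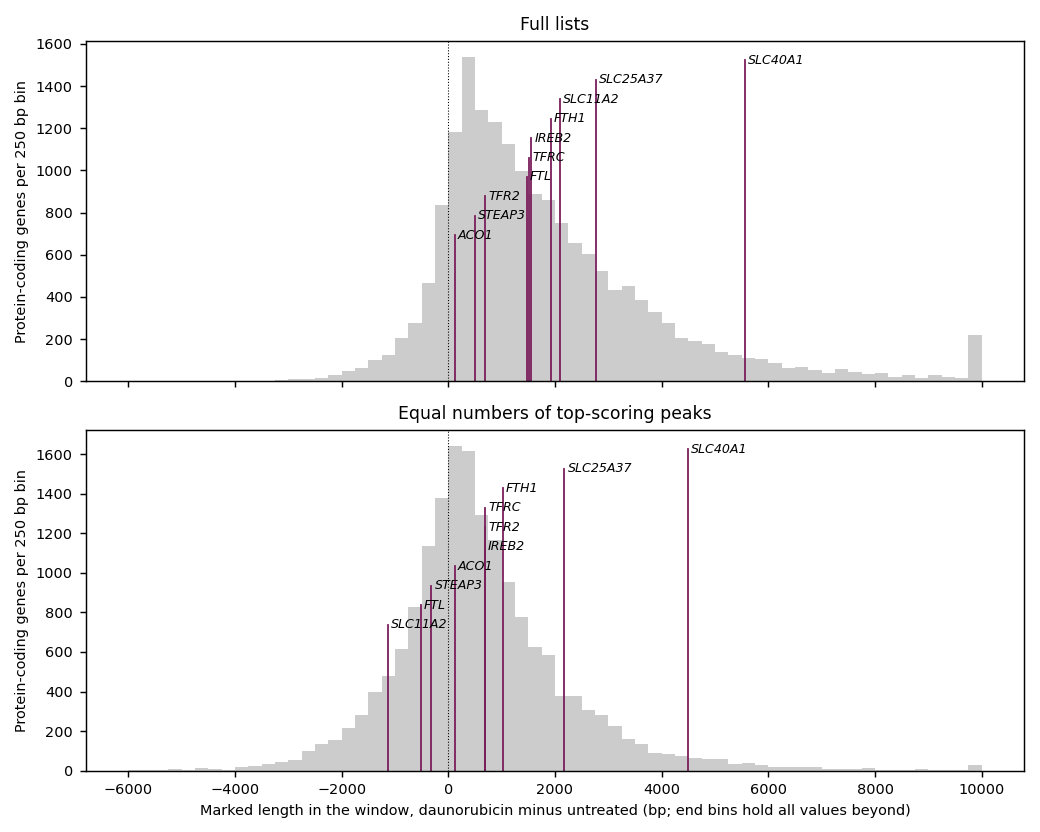
Difference in marked length of the window, daunorubicin minus untreated, in bp, for all protein-coding genes with a peak (grey bars, 250 bp bins) and for the 10 iron genes (lines, whose height has no meaning). With full lists (top) all 10 lines lie above 0. With equal numbers of top-scoring peaks (bottom) SLC11A2, FTL and STEAP3 lie below 0, and SLC40A1 and SLC25A37 keep the 2 highest values.

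Another 39 genes of iron and haem-iron handling were counted in the same way. Marked length was longer with daunorubicin at 30, shorter at 7 and without any peak at FTMT and STEAP4, beside the 87.4% of all genes with a peak that were longer. The median difference of those with a peak was 830 bp. When the lists were held to equal numbers, 19 were longer and 18 shorter, beside 65.4% of all genes that were longer. The largest positive differences were at EPAS1, which encodes the hypoxia factor HIF-2alpha (15413 bp with daunorubicin and 7241 bp without it), at the lactoferrin gene LTF (10543 bp with daunorubicin, 4223 bp without) and at FLVCR2 (6932 bp with daunorubicin, 2461 bp without). The ends of FLVCR2 were marked only with daunorubicin, over 2371 bp, and those of LTF in neither list. The 3 largest negative differences were at HAMP, which encodes hepcidin, the hormone that removes ferroportin from the membrane (5510 bp with daunorubicin and 7532 bp without it), at LCN2, which encodes a siderophore-binding protein (7646 bp with daunorubicin, 9200 bp without), and at HJV, a coreceptor gene of hepcidin control (11191 bp with daunorubicin, 11716 bp without). The ends of HAMP were unmarked in both libraries, and an end of LCN2 was marked only without daunorubicin. At own ends marked in both libraries, 10 of 28 of these genes were shorter with daunorubicin and 18 longer, beside 41.4% of all genes that were shorter.

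Promoter sequence was at hand for 7 of the 10 genes, all but TFR2, FTH1 and SLC25A37, with 11 start sites. The 250 bases before each were searched on both strands for GATAA (GATA factors), CACGTG (the E-box of MYC and USF) and TGACNNNGC (the core of the antioxidant response element), letters that 20.4%, 6.34% and 10.9% of all 35116 RefSeq promoters of that length held. Only GATAA was found, once each at STEAP3, at the unmarked SLC11A2 start site 51028242 and at the second IREB2 start site. At STEAP3 the match, in capitals, begins 100 bases before the start site (chr2:119223584-119223833, plus strand, RefSeq, GRCh38.p14), inside the peak of both lists, and this sequence is given as the 1 marked member promoter of a gene with a single listed start site that held any of the 3 motifs:
STEAP3: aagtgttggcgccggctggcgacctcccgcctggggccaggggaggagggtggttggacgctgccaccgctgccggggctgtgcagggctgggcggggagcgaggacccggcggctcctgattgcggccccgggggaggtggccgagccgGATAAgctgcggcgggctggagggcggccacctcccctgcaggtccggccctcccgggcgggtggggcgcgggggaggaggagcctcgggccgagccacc
A match is a run of letters and not a bound site.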

How the data were processed

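H3K27ac ChIP-seq of K562 with and without daunorubicin was analysed from peak lists. The submitters' processing notes name MACS2 2.1.1, Bowtie2 2.3.4.3 and deepTools 3.2.1, with no role, and the builds hg19 and hg38, of which the lists' sequence names are those of hg38. Settings, peak threshold and use of the inputs are not stated there. The authors deposited a peak list for each library, not pooled, with a score per peak of unstated formula, used within its own list. Depth is unknown.

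Gene positions and 250 upstream bases came from RefSeq tables of GRCh38.p14, and positions count from 1. Gene ends were 1 kb on either side of both annotated ends and of listed start sites. An overlap of 1 bp made peaks shared. All members were named, and among the other iron genes the 3 largest differences in each direction. The members and lists were chosen with earlier results of these data known. Some marker genes are not reported here. The 8 alternatives are in the closing section. Interval functions (Python 3.11.15, numpy 2.4.6) were checked on simulated peaks against bedtools 2.31.1.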

Additional observations from a re-analysis of the deposited data

How the results depend on the processing

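Peak calls rest on 1 library per condition of unknown depth, so the lengths carry no error, and the daunorubicin list was the longer. No paired analysis was possible because each group had 1 library. The 8 alternatives were a score of at least 43, equal numbers of top-scoring peaks, peaks on input peaks left out, windows of 10 kb and 100 kb, gene ends of 2.5 kb, a reciprocal overlap of 50% and a gap of 1 kb. The first sets 1 score on both lists, whose scales may differ. Equal numbers trim only the daunorubicin list, as the untreated list is kept whole. The causes of the shifts were not tested. All 10 genes kept a peak at their ends in both libraries under the 4 alternatives that recompute this. Only the stricter score, and equal numbers in the daunorubicin list, could have changed it, as wider ends can only add peaks. Leaving out peaks on input peaks changed none of the values recomputed. At the 10 genes it could not, as no input peak lay in their windows. The count of genes with longer marking was 6 within 10 kb, against 10. The share of all protein-coding genes within 10 kb was not computed, so this drop cannot be read as particular to these genes. Signs turned at TFRC (-316 bp within 10 kb and -730 bp within 100 kb), TFR2 (-177 bp within 10 kb), SLC11A2 (-1127 bp with equal numbers), STEAP3 (-315 bp under both) and FTL (-512 bp with equal numbers and -651 bp within 10 kb). Regions called only with daunorubicin numbered 15 with equal numbers and 14 within 10 kb. Regions called only without it numbered 1 under the stricter score, 11 with equal numbers, 3 within 10 kb, 12 within 100 kb, 17 with reciprocal overlap and 4 with the gap. Shares of all regions under these alternatives were not computed, so these shifts cannot be read as particular to these windows. The median difference over the 10 was 690 bp with equal numbers, 1610.5 bp at the stricter score, 202.5 bp within 10 kb and 2309.5 bp within 100 kb. Outside the own ends it was 1910 bp, and 769.5, 1939, 534 and 2418 bp under these in turn, and 1994 bp with ends of 2.5 kb. Of the other iron genes, 19 were longer with equal numbers. The splits at own ends and in the rest of the window were added after seeing the data.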
